A study of Homo sapiens with 8 samples.

Results

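The mitosis and G2/M genes are 40 genes whose products carry a cell from the end of DNA replication through chromosome segregation and division. They were listed by symbol for their known roles, with earlier results of these data known, and all 40 were found among the 57773 gene features of the table. C4-2 is an androgen-independent human prostate cancer line derived from LNCaP cells and carries the androgen receptor. RNA was taken after 24 h from cells given PBS as vehicle (n = 3), metformin at 5 mM (n = 3) or phenformin at 1 mM (n = 2), all in T medium with serum. Metformin and phenformin are both biguanides, and phenformin carries a phenethyl group where metformin carries methyl groups. Their doses differed, so their values are set side by side and were not tested against each other, and both are compared with the same PBS libraries. The phenformin libraries are known from the sample labels alone.

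Entry into mitosis is driven by cyclin B bound to the kinase CDK1. WEE1 and PKMYT1 hold this kinase off by phosphorylating it, and CDC25 phosphatases remove that block. The spindle checkpoint then keeps the anaphase-promoting complex inactive until every chromosome is attached, after which securin and cyclin B are degraded and separase cuts cohesin. Many of these genes are transcribed late in the cycle through the MuvB complex with B-MYB and FOXM1, at a promoter element called CHR (cell cycle genes homology region), and are repressed in resting cells by the DREAM complex at the same element. In RNA from a whole culture, fewer cells near division and less of such RNA per cell cannot be told apart.

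Values are RPKM, read numbers scaled to the exon length of a gene and to the mapped reads of a library. Libraries held 13837455 to 15898491 mapped reads except PBS replicate 1 with 44774670, and the sparsest member value, CDC25A with metformin, still rested on 73 reads. PBS replicate 1 had fewer reads than PBS replicates 2 and 3 together in 1456 of the 8236 features with 1 to 20 reads in those 2 libraries, so it is not their sum with further reads added. All 10 prostate epithelial markers analysed, such as KLK3 and FOLH1, were above 1 RPKM in each group, and summed to between 1253 and 1394 RPKM in PBS, between 488 and 530.5 in metformin and between 571 and 595 in phenformin libraries. The part of this difference in the results below was not tested. Of 16 markers of basal, neuroendocrine, stromal, immune and endothelial cells only COL1A1 reached 1 RPKM, and the 16 summed to 2.47 to 4.55 RPKM in any library. No source used here says that replicates were separate cultures. The p-values therefore cover the spread of these libraries, which may be technical.

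The promoters of the members share letters that the choice of genes did not use. RefSeq windows from 250 bases before to 50 after the start (GRCh38.p14) were matched by symbol for 31 of the 40 members, and WEE1, PKMYT1, AURKA, TPX2, BIRC5, BUB3, TTK, UBE2C and FOXM1 had no entry. A CHR, searched as TTTGAA or TTCGAA on both strands, was found in 21 of the 31 windows (67.7%) and in 16.6% of all 27305 windows. A CCAAT box, the site of NF-Y, searched as CCAAT on both strands, was found in 23 (74.2%) and in 35.7% of all windows. Both motifs were in 17 member windows (54.8%) against 6.58% of all, and E2F sites (TTTCCCGC, TTTGGCGC or TTTCGCGC) were in 4 (12.9%) against 2.79%. A match is a description and not a tested site. Other forms of the CHR were not searched, so a window without a match may still hold such an element. A stretch after the start was found early in an annotated transcript for 27 of the 31 member windows. Whether each window, such as that of AURKB, lies at the promoter used in these cells was not tested. A window without a match may therefore also miss the promoter. Below are the 150 bases before the start for the 3 members with the largest rise and the 3 with the largest fall with metformin among those with a window. They are shown so that promoters of genes that moved in opposite directions can be read together. Each is given 5′ to 3′ on the strand of the gene with matches to CHR or CCAAT in capitals (ATTGG is CCAAT and TTCAAA is TTTGAA on the other strand).
ANLN, chr7:36389712-36389861, plus strand: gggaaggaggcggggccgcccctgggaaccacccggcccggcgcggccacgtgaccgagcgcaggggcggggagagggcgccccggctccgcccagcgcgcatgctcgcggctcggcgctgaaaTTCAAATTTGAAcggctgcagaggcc
CDC20, chr1:43358831-43358980, plus strand: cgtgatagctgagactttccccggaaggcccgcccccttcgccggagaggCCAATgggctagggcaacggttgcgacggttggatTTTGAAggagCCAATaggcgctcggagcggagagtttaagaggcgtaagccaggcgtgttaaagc
KIF2C, chr1:44739687-44739836, plus strand: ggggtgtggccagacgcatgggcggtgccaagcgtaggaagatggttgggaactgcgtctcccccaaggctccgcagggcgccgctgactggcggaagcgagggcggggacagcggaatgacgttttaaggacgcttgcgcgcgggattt
ESPL1, chr12:53268149-53268298, plus strand: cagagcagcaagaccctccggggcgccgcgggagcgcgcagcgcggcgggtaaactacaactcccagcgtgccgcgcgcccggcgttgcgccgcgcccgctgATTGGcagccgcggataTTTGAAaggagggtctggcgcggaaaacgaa
CDC25A, chr3:48188418-48188567, minus strand: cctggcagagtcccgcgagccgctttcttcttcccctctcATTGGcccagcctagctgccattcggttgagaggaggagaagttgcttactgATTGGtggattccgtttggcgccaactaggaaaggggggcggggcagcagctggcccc
CCNA2, chr4:121823884-121824033, minus strand: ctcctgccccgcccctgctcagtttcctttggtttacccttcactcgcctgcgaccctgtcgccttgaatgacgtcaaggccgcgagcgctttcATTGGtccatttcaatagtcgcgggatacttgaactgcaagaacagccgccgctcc
ESPL1, whose mRNA fell with metformin, carries both a CCAAT and a CHR match in this stretch, and KIF2C, whose mRNA rose, carries neither. With metformin 28.2% of all genes tested were called higher and 54.8% lower (limma on log2(RPKM + 0.1), Benjamini-Hochberg adjusted p under 0.05), with a median log2 change of -0.30. Of the 21 members with a match to TTTGAA or TTCGAA in the window, 14 were higher, 2 lower and 5 not past the test, with a median of 0.35. Of the 10 with a window and no match to these forms, 2 were higher, 5 lower and 3 not past the test. Their median was -0.21 and their shares were near those of all genes. AURKB is among the 5 called lower, and the counts were not repeated without windows of uncertain position. The 9 members with no window had 6 higher and 2 lower at a median of 0.42. With phenformin, where 31.2% of all genes were higher and 45.4% lower, the 21 gave 18 higher and 0 lower at a median of 0.74, the 10 gave 6 and 0 at 0.29 and the 9 gave 9 and 0 at 0.76.

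Untreated C4-2 cells expressed every member, from WEE1 at 2.03 RPKM to CCNB1 at 37.9, with a median of 9.16. The spread between PBS libraries was small, with a coefficient of variation of 0.632% to 13.5% and a median of 4.48%. Each member passed the filter on low values through the PBS libraries alone, and 39 of 40 were at or above 1 RPKM in every library. The exception was ESPL1 in metformin replicate 2 (0.948 RPKM). Its metformin libraries alone would therefore not have passed the filter of the metformin comparison.

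**Figure D1:**
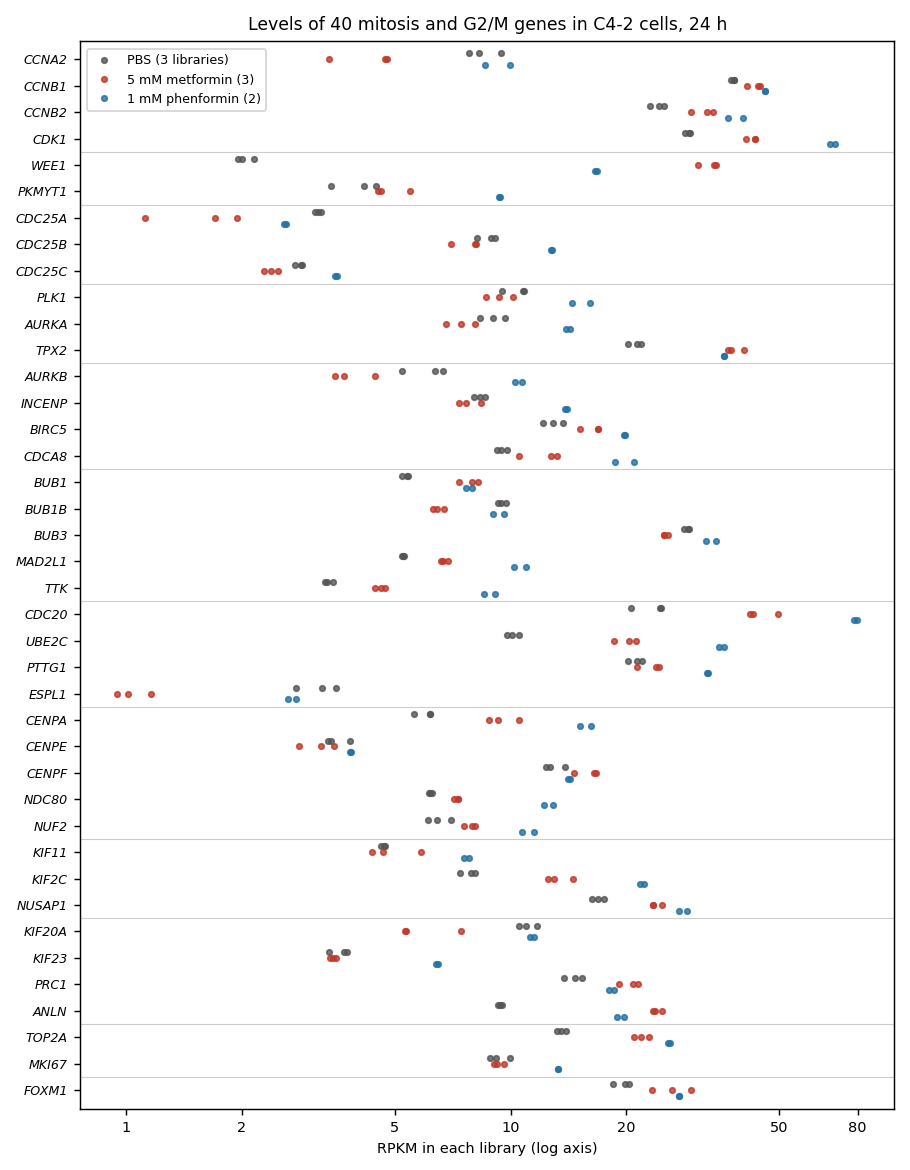
RPKM of each of the 40 genes (rows, grouped by role and separated by grey lines) in every library on a log axis, with a point for each PBS (grey), metformin (red) and phenformin (blue) library. WEE1 stands apart in its distance between groups, at means of 2.03 RPKM (PBS), 33.0 (metformin) and 16.7 (phenformin), and ESPL1, CCNA2, CDC25A and KIF20A are the genes whose metformin points lie farthest to the left of PBS.

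More of the mitosis genes were higher than lower with 5 mM metformin. Of the 40, 22 were higher, 9 lower and 9 not past the test (limma on log2(RPKM + 0.1), Benjamini-Hochberg adjusted p under 0.05 over all genes tested). Among all 11730 genes tested 82.9% passed, 28.2% as higher and 54.8% as lower. Without PBS replicate 1 the members gave 23 higher and 8 lower. The members' median log2 change was 0.27 and that of all genes -0.30, a shift that RPKM scaling leaves in place. It was -0.20 without PBS replicate 1 (10636 genes tested), -0.21 without PBS replicate 2 and -0.22 without PBS replicate 3 (10616 genes tested each). In those fits genes at 1 RPKM in PBS libraries alone no longer passed the filter. With the libraries centred on the median change of all genes, 30 members were higher, 6 lower and 4 not past the test. All genes then split into 40.9% higher and 40.9% lower. Subtracting the median log2 level of each library, a smaller shift, gave 26 higher and 6 lower (36.1% and 46.2% of all genes). The 6 called lower under each of these scalings were ESPL1, CCNA2, CDC25A, KIF20A, AURKB and BUB1B. Only WEE1 and ANLN were higher and ESPL1 lower by at least 2-fold, past the test, against 8.45% and 22.4% of all genes. Among the 6685 genes with a mean of at least 5 RPKM the shift was smaller, with 2322 higher and 3300 lower at a median of -0.15. The 31 members among them gave 21 higher and 6 lower, at a median of 0.35.

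With 1 mM phenformin 33 of the 40 were higher, 0 lower and 7 not past the test (limma, adjusted p under 0.05), where 76.5% of all 12172 genes tested passed, 31.2% as higher and 45.4% as lower. At an unadjusted p under 0.05 limma also had 0 members lower, and limma-voom on reads recovered from the RPKM steps called 1, ESPL1. The median log2 change of the members was 0.69 and that of all genes -0.15, and after centring on the latter 35 were higher and 0 lower (38.4% of all genes each way). After median-centring 34 were higher and 0 lower (35.6% and 41.2% of all genes). The shift of all genes depended on their level. Among the 6698 genes with a mean of at least 5 RPKM, 2714 were higher and 2638 lower, at a median of 0.008. The 35 members among them gave 31 higher and 0 lower, at a median of 0.73. At least 2-fold higher were WEE1, UBE2C, CDC20, KIF2C, CENPA, TTK, CDK1, PKMYT1, CDCA8, ANLN and NDC80, 11 of 40 against 7.73% of all genes. The metformin and PBS libraries did not overlap for 33 members (84.5% of all genes) and the phenformin and PBS libraries for 37 (85.9% of all genes).

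**Figure D2:**
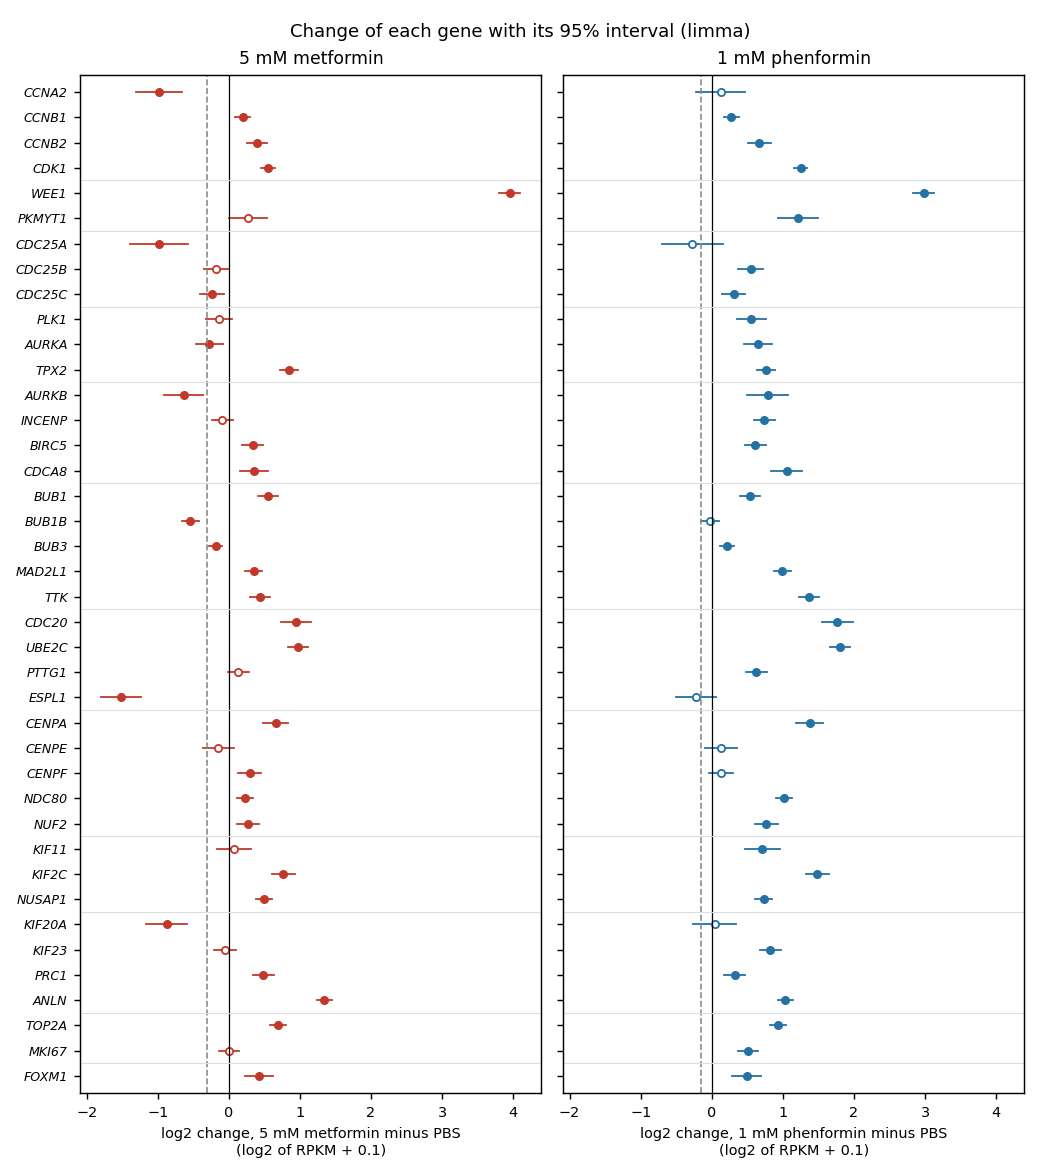
Log2 change of each gene against PBS (limma, on log2 of RPKM + 0.1) with its 95% interval, for 5 mM metformin (left) and 1 mM phenformin (right). Filled points passed an adjusted p of 0.05, open points did not, the solid line is 0 and the dashed line is the median of all genes tested (-0.30 and -0.15). Metformin changes lie on both sides of 0 and no filled phenformin point lies below it.

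Among the cyclins and their kinase, metformin moved cyclin A and cyclin B mRNA in opposite directions. CCNA2, the S and G2 cyclin, was at 8.26, 7.78 and 9.42 RPKM with PBS, 3.37, 4.70 and 4.77 with metformin and 8.56 and 9.96 with phenformin. All metformin libraries lay below all PBS libraries, with a log2 change of -0.98 ± 0.14 (SE, limma, adjusted p = 2.2e-04), while the phenformin libraries overlapped PBS (0.12 ± 0.15, adjusted p = 0.48). CCNB1, the main mitotic cyclin, was at 38.1, 38.2 and 37.4 RPKM with PBS, 44.7, 41.3 and 44.1 with metformin and 45.8 and 46.0 with phenformin. These are small rises without overlap, of 0.19 ± 0.04 with metformin (limma, adjusted p = 0.0038) and 0.28 ± 0.04 with phenformin (adjusted p = 4.5e-04). CCNB2, a cyclin B of the Golgi and cytoplasm, rose by 0.40 and 0.67 on the log2 scale. CDK1, the kinase itself, was at 29.2, 28.4 and 29.4 RPKM with PBS, 41.0, 43.2 and 43.4 with metformin and 67.9 and 70.0 with phenformin. That is a rise of 1.46-fold with metformin (limma, adjusted p = 6.8e-06) and 2.37-fold with phenformin (adjusted p = 6.1e-08).

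The regulators of CDK1 phosphorylation held the largest change of the set. WEE1, which phosphorylates CDK1 and restrains entry into mitosis, was at 2.00, 1.95 and 2.15 RPKM with PBS, 33.8, 34.3 and 30.8 with metformin and 16.6 and 16.8 with phenformin. It had the lowest PBS level of the 40 and was among the 5 highest with metformin, a rise of 3.95 ± 0.06 on the log2 scale, against 2.98 ± 0.06 with phenformin (SE, limma, adjusted p = 1.0e-08 and 7.9e-09). PKMYT1, the membrane-bound relative of WEE1, was at 4.47, 4.15 and 3.41 RPKM with PBS, 4.59, 4.52 and 5.47 with metformin and 9.32 and 9.41 with phenformin. It did not pass with metformin (limma, adjusted p = 0.055), passed as higher without PBS replicate 1 (adjusted p = 0.026) and with the median change centred (adjusted p = 9.9e-04), and rose 2.32-fold with phenformin (adjusted p = 2.2e-05). None of the 3 phosphatases that oppose these kinases was called higher with metformin, where only 28.2% of all genes were. CDC25A, which also acts at the start of S phase, was at 3.15, 3.11 and 3.22 RPKM with PBS, 1.94, 1.12 and 1.70 with metformin and 2.57 and 2.61 with phenformin. Its fall with metformin was -0.98 ± 0.18 on the log2 scale (limma, adjusted p = 0.0010), and with phenformin it had -0.28 ± 0.19 (adjusted p = 0.21). CDC25C, the phosphatase of mitotic entry, had -0.24 with metformin, a call lost when the median change was centred (0.06, limma, adjusted p = 0.43) and without PBS replicate 1 (adjusted p = 0.078), and rose by 0.31 with phenformin. CDC25B, thought to start the activation of cyclin B with CDK1, was at 8.17 to 9.13 RPKM with PBS and 7.02 to 8.11 with metformin (limma, adjusted p = 0.057), and rose to 12.9 and 12.7 with phenformin. CDC25B passed as lower with metformin without PBS replicate 3 (limma, adjusted p = 0.033).

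The polo and aurora kinases, which act at centrosomes, kinetochores and the midzone, were lower or not past the test with metformin, unlike CDK1. AURKB, the kinase of the chromosomal passenger complex, was at 6.36, 6.69 and 5.22 RPKM with PBS, 3.70, 3.49 and 4.45 with metformin and 10.7 and 10.3 with phenformin. Its metformin libraries lay below and its phenformin libraries above all PBS libraries, with log2 changes of -0.64 ± 0.12 and 0.78 ± 0.13 (SE, limma, adjusted p = 0.0012 and 4.2e-04). AURKA, the centrosomal aurora kinase, had -0.27 with metformin (limma, adjusted p = 0.014, and adjusted p = 0.77 with the median change centred) and 0.65 with phenformin (adjusted p = 1.2e-04). TPX2, the spindle protein that activates AURKA, was at 21.3, 21.9 and 20.3 RPKM with PBS, 37.4, 36.7 and 40.5 with metformin and 36.0 in both phenformin libraries. TPX2 thus rose 1.80-fold and 1.70-fold without overlap (limma, adjusted p = 2.2e-06 and 2.9e-06). PLK1, the polo kinase of mitotic entry and exit, was at 9.49 to 10.8 RPKM with PBS and 8.66 to 10.2 with metformin, an overlap (limma, adjusted p = 0.12), and at 14.5 and 16.1 with phenformin (adjusted p = 3.9e-04). PLK1 passed as lower with metformin without PBS replicate 3 (limma, adjusted p = 0.039) or without metformin replicate 3 (adjusted p = 0.048), and as higher with the median change centred (adjusted p = 0.049).

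The other subunits of the passenger complex differed from its kinase. BIRC5, which encodes survivin, was at 13.7, 12.9 and 12.1 RPKM with PBS, 16.9, 15.2 and 16.9 with metformin and 19.9 and 19.7 with phenformin (log2 changes of 0.33 and 0.61). CDCA8, which encodes borealin, rose by 0.35 and 1.05 on the log2 scale. INCENP, the scaffold that binds AURKB, was at 8.02 to 8.60 RPKM with PBS and 7.35 to 8.38 with metformin (limma, adjusted p = 0.20, and 0.011 as higher with the median change centred), and at 13.8 and 14.0 with phenformin (adjusted p = 9.7e-06). With metformin this complex therefore had 2 subunit mRNAs higher, 1 lower and 1 not past the test, where 28.2% of all genes were higher and 54.8% lower. With the median change centred, 3 were higher and 1 lower. With phenformin all 4 were higher, where 31.2% of all genes were.

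Genes of the spindle assembly checkpoint also split with metformin. BUB1, a kinetochore kinase, was at 5.40, 5.38 and 5.22 RPKM with PBS, 7.96, 7.35 and 8.25 with metformin and 7.64 and 7.95 with phenformin, rises of 0.55 and 0.54 on the log2 scale (limma, adjusted p = 5.1e-05 and 5.3e-05). BUB1B, which encodes the checkpoint protein BUBR1, was at 9.45, 9.27 and 9.71 RPKM with PBS, 6.70, 6.28 and 6.43 with metformin and 9.61 and 8.99 with phenformin. It fell by 0.54 ± 0.05 with metformin (SE, limma, adjusted p = 2.1e-05), and the phenformin libraries overlapped PBS (adjusted p = 0.67). BUB3, which recruits both to kinetochores, had -0.19 with metformin and 0.21 with phenformin, and the former turned to 0.11 with the median change centred (limma, adjusted p = 0.032). MAD2L1, which blocks CDC20, rose by 0.35 and 0.99, and the checkpoint kinase TTK (MPS1) rose by 0.44 and 1.37 on the log2 scale. TTK lay between 3.29 and 3.45 RPKM in PBS libraries, between 4.45 and 4.71 in metformin libraries and at 9.09 and 8.55 in phenformin libraries.

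With metformin the activators of anaphase rose and separase fell. CDC20, the activator of the anaphase-promoting complex, was at 24.5, 24.6 and 20.6 RPKM with PBS, 42.8, 41.97 and 49.7 with metformin and 78.1 and 79.9 with phenformin. UBE2C, its ubiquitin-conjugating enzyme, was at 10.5, 9.78 and 10.1 RPKM with PBS, 21.2, 18.6 and 20.3 with metformin and 35.0 and 36.0 with phenformin. The groups were separate for both genes, which rose 1.92-fold and 1.97-fold with metformin (limma, adjusted p = 2.2e-05 and 2.0e-06) and 3.40-fold and 3.49-fold with phenformin (adjusted p = 5.3e-07 and 6.1e-08). PTTG1, which encodes securin, the inhibitor of separase, was at 20.2 to 21.9 RPKM with PBS and 21.3 to 24.3 with metformin (limma, adjusted p = 0.085). PTTG1 passed as higher with metformin without metformin replicate 2 (limma, adjusted p = 0.010) and with the median change centred (adjusted p = 4.8e-05), and it rose by 0.62 with phenformin. ESPL1, the separase gene, was at 3.23, 3.50 and 2.76 RPKM with PBS, 1.01, 0.948 and 1.16 with metformin and 2.76 and 2.63 with phenformin. It had the largest fall of the set with metformin, -1.52 ± 0.12 on the log2 scale (SE, limma, adjusted p = 7.5e-06). With phenformin its 2 libraries lay below the 3 PBS libraries, the nearest by less than 0.01 RPKM, at -0.22 ± 0.12 (adjusted p = 0.14), which passed without PBS replicate 3 (-0.31, adjusted p = 0.045).

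The 5 centromere and kinetochore genes among the members were higher or not past the test with both drugs. With metformin 4 were higher and with phenformin 3, where 28.2% and 31.2% of all genes were. This does not extend to all such genes. Of 38 further ones, described below, 20 were higher and 8 lower with metformin, and 31 and 4 with phenformin (limma, adjusted p under 0.05). CENPA, the histone variant that marks centromeres, was at 6.17, 6.16 and 5.62 RPKM with PBS, 9.29, 8.79 and 10.5 with metformin and 15.2 and 16.2 with phenformin. This is a rise of 1.58-fold and 2.59-fold without overlap (limma, adjusted p = 7.8e-05 and 1.0e-06). NDC80 and NUF2, partners in the complex that grips microtubules, rose by 0.23 and 0.27 with metformin and by 1.01 and 0.77 with phenformin on the log2 scale. CENPF, a kinetochore protein that links to dynein, was at 12.7, 13.9 and 12.4 RPKM with PBS, 14.6, 16.7 and 16.5 with metformin and 14.1 and 14.3 with phenformin. CENPF passed with metformin (limma, adjusted p = 0.0042) and not with phenformin (adjusted p = 0.13). CENPE, a kinetochore motor, passed with neither (limma, adjusted p = 0.17 and 0.27). With the median change centred, both passed as higher with phenformin (limma, adjusted p = 0.0086 for CENPF and 0.029 for CENPE).

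Motor and cytokinesis genes ranged, with metformin, from the second largest rise to the fourth largest fall of the 40. ANLN, which encodes anillin of the contractile ring, was at 9.29, 9.50 and 9.39 RPKM with PBS, 23.7, 24.8 and 23.5 with metformin and 19.7 and 19.0 with phenformin (2.54-fold and 2.05-fold, limma, adjusted p = 1.0e-07 and 1.8e-07). KIF20A, a midzone motor needed for cytokinesis, was at 10.98, 11.7 and 10.5 RPKM with PBS, 5.33, 5.36 and 7.45 with metformin and 11.3 and 11.5 with phenformin. KIF20A fell with metformin by 0.88 ± 0.13 on the log2 scale (SE, limma, adjusted p = 2.6e-04) and overlapped PBS with phenformin (adjusted p = 0.79). PRC1, which bundles midzone microtubules, rose by 0.48 and 0.32. KIF23, the motor of the centralspindlin complex, was at 3.38 to 3.74 RPKM with PBS and 3.39 to 3.52 with metformin (limma, adjusted p = 0.44), and at 6.49 and 6.41 with phenformin (adjusted p = 5.7e-06). KIF2C, a microtubule depolymerase that corrects attachments, rose 1.70-fold and 2.80-fold, and NUSAP1, a spindle-binding protein, 1.41-fold and 1.66-fold. KIF11, the motor that separates spindle poles, was at 4.59 to 4.71 RPKM with PBS, 4.36 to 5.84 with metformin (limma, adjusted p = 0.52) and 7.78 and 7.58 with phenformin (adjusted p = 3.3e-04). With the median change centred, KIF23 and KIF11 passed as higher with metformin (limma, adjusted p = 0.015 and 0.0046).

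The proliferation marker MKI67 did not pass the test with metformin as measured. MKI67 encodes the Ki-67 protein of the chromosome surface and was at 9.16, 9.99 and 8.84 RPKM with PBS, 9.04, 9.23 and 9.62 with metformin and 13.3 in both phenformin libraries. The metformin and PBS values overlapped (-0.003, 95% interval -0.14 to 0.14, limma, adjusted p = 0.96), but with the median change centred the gene was higher (0.30, adjusted p = 0.0015), and with phenformin it rose 1.42-fold (adjusted p = 7.1e-05). TOP2A, which untangles chromosomes before segregation, was at 13.5, 13.2 and 14.0 RPKM with PBS, 21.0, 21.8 and 23.0 with metformin and 26.1 and 25.8 with phenformin. FOXM1, the transcription factor of this program, was at 19.8, 20.3 and 18.5 RPKM with PBS, 26.4, 23.3 and 29.4 with metformin and 27.5 and 27.4 with phenformin. Both genes rose without overlap, TOP2A by 0.69 and 0.93 and FOXM1 by 0.42 and 0.49 on the log2 scale.

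**Figure D3:**
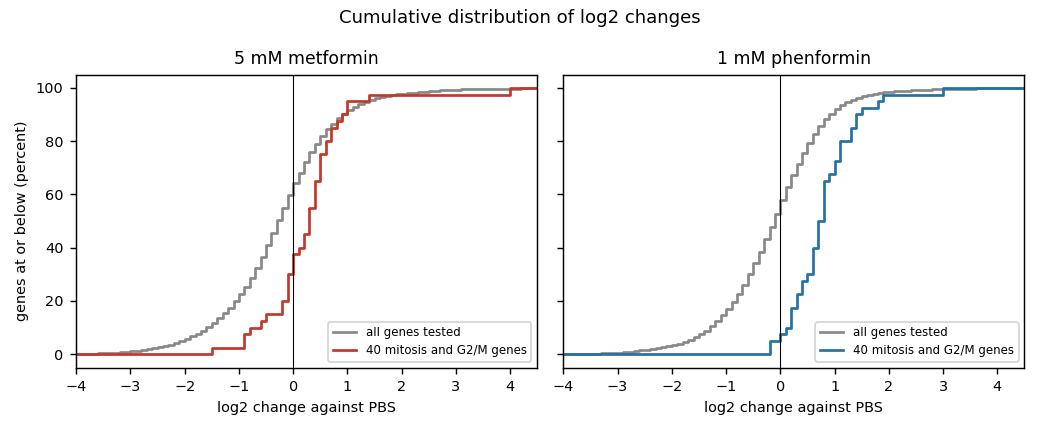
Cumulative share of genes (percent, vertical axis) at or below each log2 change against PBS, for all genes tested (grey) and the 40 mitosis and G2/M genes (color), with metformin on the left and phenformin on the right. The members' curve lies to the right of that of all genes over most of its range, around medians of 0.27 against -0.30 with metformin and 0.69 against -0.15 with phenformin, and with metformin the curves meet near a log2 change of 1.

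Among genes outside the 40 with roles in mitosis, more were higher than lower as measured with each drug for the kinetochore, the spindle and condensin or cohesin, and not for the anaphase-promoting complex. Of 38 further kinetochore and centromere genes 20 were higher and 8 lower with metformin, and 31 were higher and 4 lower with phenformin (limma, adjusted p under 0.05). The count of 8 was 4 without PBS replicate 1 or 2 and 5 without PBS replicate 3. SPC25, CENPI and CENPC, among those 8, were below 1 RPKM in every metformin library. They could not reach 1 RPKM in 3 libraries once a PBS library was left out, and were then not tested. The smaller counts thus include this effect of the filter. With the median change centred the counts were 30 and 3 with metformin and 32 and 3 with phenformin. SPC25 and SPC24, which complete the NDC80 complex, fell from 3.21 ± 0.121 to 0.689 ± 0.185 and from 7.04 ± 0.497 to 2.72 ± 0.541 RPKM with metformin (SD, n = 3 each), in contrast to NDC80 and NUF2. SPC25 was below 1 RPKM in every metformin library and passed the filter on low values of that comparison through its PBS libraries alone. With phenformin SPC25 was at 1.35 and SPC24 at 7.74 RPKM on average, and SPC24 did not pass (limma, adjusted p = 0.39). PMF1, of the MIS12 complex, rose by 1.18 on the log2 scale with metformin, and MAD1L1, the partner of MAD2, rose by 0.82 with metformin and 1.20 with phenformin. ZWINT was at 22.7 RPKM with PBS, 21.3 with metformin (limma, adjusted p = 0.20) and 47.4 with phenformin. Of 41 tested spindle, motor and cytokinesis genes 22 were higher and 6 lower with metformin, and 31 and 4 with phenformin (32 and 4, and 35 and 2, with the median change centred). Leaving out each library in turn gave 16 to 23 higher and 5 to 7 lower with metformin, and 29 to 32 and 3 to 5 with phenformin. Of all genes 28.2% were higher and 54.8% lower with metformin, and 31.2% and 45.4% with phenformin. PLK4, the kinase of centriole duplication, rose by 1.35 and 1.67 on the log2 scale, the motor gene KIF4A by 1.18 and 0.68, and HAUS3, of the augmin complex, from 0.236 to 1.56 and 2.07 RPKM. HAUS3 was at 0.212, 0.256 and 0.241 RPKM with PBS and passed the filter on low values through its treated libraries alone. Its call as higher is therefore not independent of that filter. The motor gene KIFC1 fell by 1.21 and 0.28 on the log2 scale.

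Among 21 condensin and cohesin genes 17 were higher and 3 lower with metformin, and 14 and 3 with phenformin (limma, adjusted p under 0.05). NCAPH, a condensin subunit, rose from 6.70 ± 0.116 to 19.7 ± 1.29 RPKM with metformin (SD, n = 3 each) and to 18.4 with phenformin. NIPBL, the cohesin loader, and PDS5B, a cohesin regulator, rose by 1.19 and 1.05 on the log2 scale with metformin and by 0.52 and 0.63 with phenformin. NCAPH2 rose by 0.64 and 1.41 in the same order. Of 18 genes of the anaphase-promoting complex 12 were lower and 4 higher with metformin, where 54.8% of all genes were lower and 28.2% higher. With phenformin 8 were lower and 7 higher, where 45.4% and 31.2% of all genes were. ANAPC7 fell from 15.4 ± 0.571 to 6.87 ± 0.531 RPKM with metformin (SD, n = 3 each), and ANAPC10, FBXO5 (an inhibitor of the complex) and FZR1 (its activator after mitosis) rose by 1.24, 1.00 and 0.84 on the log2 scale. With the median change centred, 6 of the 18 were higher and 8 lower with metformin, and 9 were higher and 7 lower with phenformin.

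Regulators of mitotic entry, exit and transcription moved in both directions, with more higher than lower. Of 26 tested entry and exit genes 15 were higher and 8 lower with metformin, and 15 and 9 with phenformin (limma, adjusted p under 0.05). GADD45A, a stress protein that can inhibit CDK1, rose from 10.5 ± 0.914 to 45.1 ± 1.61 RPKM with metformin (SD, n = 3 each) and to 70.4 with phenformin. CHEK1, the checkpoint kinase that restrains CDC25 proteins, rose by 1.04 and 1.30 on the log2 scale. CCNF, which encodes the F-box protein cyclin F, had -2.00 with metformin and -0.78 with phenformin, both past the test. Of 19 tested G2/M transcription regulators 12 were higher and 6 lower with each drug. Of all genes 28.2% were higher and 54.8% lower with metformin, and 31.2% and 45.4% with phenformin. With the median change centred the entry and exit counts were 18 and 6 with metformin and 16 and 7 with phenformin. Those of the transcription regulators were then 12 and 4, and 13 and 6. LIN9, LIN37 and LIN54, subunits of MuvB, rose by 1.03, 1.16 and 1.10 with metformin and by 1.21, 2.22 and 0.98 with phenformin on the log2 scale. After subtraction of the shift of all genes, the lists' medians were 0.51 for the kinetochore, 0.52 for the spindle, 0.89 for the condensin and cohesin, -0.10 for the anaphase-promoting complex, 0.61 for the entry and exit and 0.62 for the transcription genes with metformin, beside 0.58 for the 40 members. With phenformin these were 0.84, 0.68, 0.59, 0.15, 0.45 and 0.55, beside 0.84 for the members.

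**Figure D4:**
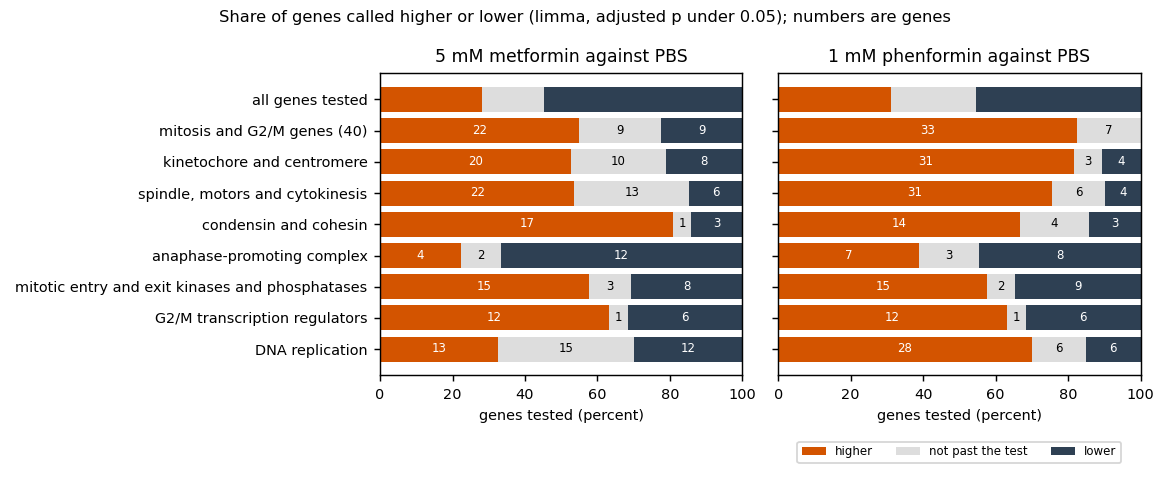
Percent of tested genes in each list that were called higher (orange), lower (dark blue) or neither (grey) by limma at an adjusted p of 0.05, for metformin (left) and phenformin (right) against PBS, with the number of genes printed in each block and all genes tested in the top bar. With metformin the anaphase-promoting complex has the highest percent called lower of the lists drawn (12 of 18 genes, beside 54.8% of all genes), and the 40 mitosis and G2/M genes have none called lower with phenformin.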

How the data were processed

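The authors mapped mRNA libraries sequenced on an Illumina HiSeq 2500 with CLC Genomics Workbench and deposited RPKM values per gene feature. The submitters' processing notes name the build GRCh37.p13, and no further scaling between libraries was stated. No source used here gives strand use or the annotation release, and values of genes that overlap others, antisense ones included, are therefore uncertain. Read numbers came from the spacing of RPKM values, computed with Python 3.11.15, within 0.01 read for 100% of the 25529 features above 0, up to a factor shared by reads and length.

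Groups followed the sample labels. Metformin was compared with PBS in 6 libraries (genes reaching 1 RPKM in 3 or more), and phenformin with PBS in a fit of all 8 (genes reaching 1 RPKM in 2 or more). Both used limma 3.58.1 in R 4.3.3 (lmFit, eBayes with trend) on log2(RPKM + 0.1), a scale that understates changes of low genes, with two-sided Benjamini-Hochberg adjustment at 0.05. The procedure was tested on simulated data in which a small set of genes changed equally in both directions. Those data held no shift of all genes, so that test does not cover the choice of scaling. Fold changes are 2 to the power of the log2 change on that scale. All 40 members are accounted for. From each other list the text names up to 3 of the largest changes past the test with metformin and 2 with phenformin (at least 2 RPKM in the higher group), and at most 1 abundant gene that did not pass with metformin. RBL1 and CKS1B, each split into 2 features, and PECAM1 were not analysed here, and 1 marker of the prostate list is not reported here. Members and lists were chosen with earlier results of these data known. Alternatives covered pseudocounts, filters, scaling, the variance model, a replicate block and each library left out.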

Additional observations from a re-analysis of the deposited data

How the results depend on the processing

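Of the 40 members, 22 to 23 were higher and 8 to 11 lower with metformin when each library was left out in turn, and 33 were higher and 0 to 1 lower with phenformin. Requiring a 2-fold change left 2 higher and 1 lower with metformin and 11 higher with phenformin. The 1 member lower with phenformin was ESPL1 with limma-voom and without PBS replicate 3, and CDC25A with PBS and phenformin libraries only and without metformin replicate 2. Replicate numbers did not pair the libraries (correlations of deviations from -0.075 to 0.006 over 7 same-numbered pairs), and a replicate block gave 22 higher and 9 lower with metformin and 33 and 0 with phenformin. Of all genes, 3302 were higher and 6427 lower with metformin, 4229 and 5420 after median-centring, 5020 and 6445 on the TPM scale, and 4794 and 4797 with the median change centred. With phenformin these were 3792 and 5521, 4328 and 5010, 5621 and 4919, and 4669 and 4674. Centring on the median change and limma-voom were chosen after the data were seen.

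Small metformin changes below 0 turned positive under other scalings, since these raise treated libraries. Values are given for named genes past the test either before or after rescaling. With the median change centred they were 0.065 for CDC25C, 0.16 for PLK1, 0.026 for AURKA, 0.21 for INCENP, 0.11 for BUB3, 0.24 for KIF23, 0.30 for MKI67, 0.21 for ZWINT, 0.22 for RHOA, 0.27 for NCAPD2, 0.29 for UBE2S, 0.20 for ENSA, 0.25 for MCM3 and 0.29 for COL1A1. On the TPM scale they were 0.021 for CDC25C, 0.17 for INCENP, 0.078 for BUB3, 0.21 for KIF23, 0.26 for MKI67, 0.18 for ZWINT, 0.19 for RHOA, 0.23 for NCAPD2, 0.26 for UBE2S and 0.17 for ENSA. After median-centring they were 0.000305 for BUB3, 0.18 for MKI67 and 0.15 for NCAPD2. With phenformin on the TPM scale, BUB1B was 0.24, RHOA 0.037 and ENSA 0.21. With metformin ESPL1, CCNA2, CDC25A, KIF20A, AURKB and BUB1B were lower at an adjusted p under 0.05 in every alternative that tested them (ESPL1, CDC25A and AURKB were not tested at a mean of at least 5 RPKM).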

Other observations

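Genes of DNA replication, which act before mitosis, moved in both directions with metformin and were mostly higher with phenformin. Of 40 tested, 13 were higher, 12 lower and 15 not past the test with metformin, and 28 were higher and 6 lower with phenformin (limma, adjusted p under 0.05). Of all genes 28.2% were higher and 54.8% lower with metformin, and 31.2% and 45.4% with phenformin. With the median change centred the counts of the 40 were 23 and 6, and 32 and 2. Leaving out each library in turn gave 10 to 12 higher and 12 to 16 lower with metformin, and 24 to 29 and 4 to 6 with phenformin. GMNN, which encodes geminin, the inhibitor of origin licensing, had a PBS level of 7.85 ± 0.259 RPKM and rose to 14.6 ± 0.356 in metformin libraries (SD, n = 3 each) and to 23.2 in phenformin libraries (n = 2). RPA1, the large subunit of the single-strand binding protein, fell from 23.7 ± 0.843 to 8.37 ± 0.783 RPKM with metformin and to 7.52 with phenformin. RFC4, a subunit of the clamp loader, and POLA2, a subunit of the primase polymerase, had log2 changes of -1.44 and -1.20 with metformin and of -0.91 and -0.34 with phenformin. MCM3, of the replicative helicase, had a PBS level of 22.9 ± 0.431 RPKM and a metformin level of 22.2 ± 3.21 (limma, adjusted p = 0.59) and rose by 0.34 on the log2 scale with phenformin.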
